A study of Mus musculus with 30 samples.

Results

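The genes described here are 10 lipid genes of the sebaceous gland: Elovl3, Far2, Mogat1, Soat1, Scd1, Scd3, Mc5r, Acsbg1, Cidea and Elovl4. They were taken by symbol, and 17 probe sets of the 45037 on the array carry a symbol of 1 of them. All 17 passed the filter on low values, after which 36029 probe sets were left. Scd1, Scd3, Far2 and Elovl4 each have 2 probe sets, Soat1 has 4 and the other 5 genes have 1. Where a gene has several, the values quoted are those of the probe set with the highest mean over all arrays.

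The arrays come from whole shaved back skin of female mice of a mixed 129–C57BL/6 strain, aged 8 to 12 weeks. Wild-type (WT) mice were compared with D6-deficient mice, which lack D6 (gene symbol Ccbp2 on the array), a receptor that binds and removes inflammatory CC chemokines without signalling as other chemokine receptors do. TPA, a phorbol ester that inflames the skin, was painted on 3 times at 50 µM, with 24 h between applications, and skin was taken 1, 2, 4 or 6 days later. The controls of each genotype received acetone, the solvent, and stand as day 0, although the titles of those samples call them untreated. Both genotypes were sampled on all 5 days, with 3 mice and 1 Affymetrix mouse genome array per mouse each time, which makes 30 arrays. The tissue was not separated into epidermis, glands or fat.

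The sebaceous gland is a holocrine gland attached to the hair follicle: its cells fill with lipid droplets, burst and release their content as sebum. Sebum of the mouse is rich in wax esters, cholesteryl esters and triglycerides with very long or monounsaturated chains. The enzymes that make these lipids are therefore strongly expressed by differentiating sebocytes. Elovl3 and Elovl4 lengthen fatty acids, Scd1 and Scd3 put a double bond into them, and Acsbg1 couples very-long-chain fatty acids to coenzyme A. Far2 reduces fatty acyl-CoA to the fatty alcohols of wax esters, Soat1 esterifies cholesterol, and Mogat1 makes diacylglycerol. Cidea is a protein of the lipid droplet surface, and Mc5r is the melanocortin receptor through which sebum secretion is stimulated.

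Values are log2 intensities, so that a difference of 1 is a doubling. limma was fitted to all 30 arrays, and adjusted p-values are Benjamini-Hochberg values over the 36029 probe sets. A probe set is said to have risen or fallen when its adjusted p was under 0.05, and is called when it also changed more than 3-fold. Array medians ran from 5.64 to 5.80, and the 3 arrays within a group had a median SD of 0.187 per probe set. On 1 of the 3 probe sets of the D6 gene the 15 D6-deficient arrays (3.30 to 3.86) lay below the 15 WT arrays (4.15 to 5.76), whereas the genotypes overlapped on the other 2. The hybridization control probe sets separate the arrays into 17 brighter and 13 dimmer ones, and values within these sets are given for Elovl3 and Far2 on day 2. All 3 D6-deficient arrays of day 6 are brighter ones, against 1 of 3 on day 0 and 1 of 3 on day 4. In those comparisons day and brightness are therefore partly mixed.

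After TPA most of the 10 genes were lower than in the acetone controls, in both genotypes and on all 4 days, and none of the 17 probe sets rose. In WT mice 5 of 17 probe sets were called lower on day 1, 5 on day 2, 6 on day 4 and 5 on day 6. Of all tested probe sets, 0.835%, 0.699%, 1.48% and 0.541% were called lower on these days. In D6-deficient mice 10 of 17 were called lower on day 1, 8 on day 2, 8 on day 4 and 9 on day 6, against 1.43%, 1.57%, 2.04% and 1.24% of all tested probe sets. With no fold threshold 12, 10, 11 and 13 of the 17 fell in WT mice, where 12.7%, 15%, 21.8% and 11.9% of all probe sets did. In D6-deficient mice 14 fell on day 1, 14 on day 2, 14 on day 4 and 12 on day 6, where 18.1%, 20.6%, 22.4% and 15.7% of all probe sets did. The median log2 difference over the 17 probe sets on day 2 was -0.78 for WT and -1.57 for D6-deficient mice, with medians of 0.00 and -0.01 over all tested probe sets. The comparisons of 1 genotype share their 3 control arrays, so the days are not independent of each other. In whole skin, fewer sebocytes and less RNA per sebocyte cannot be told apart.

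**Figure D1:**
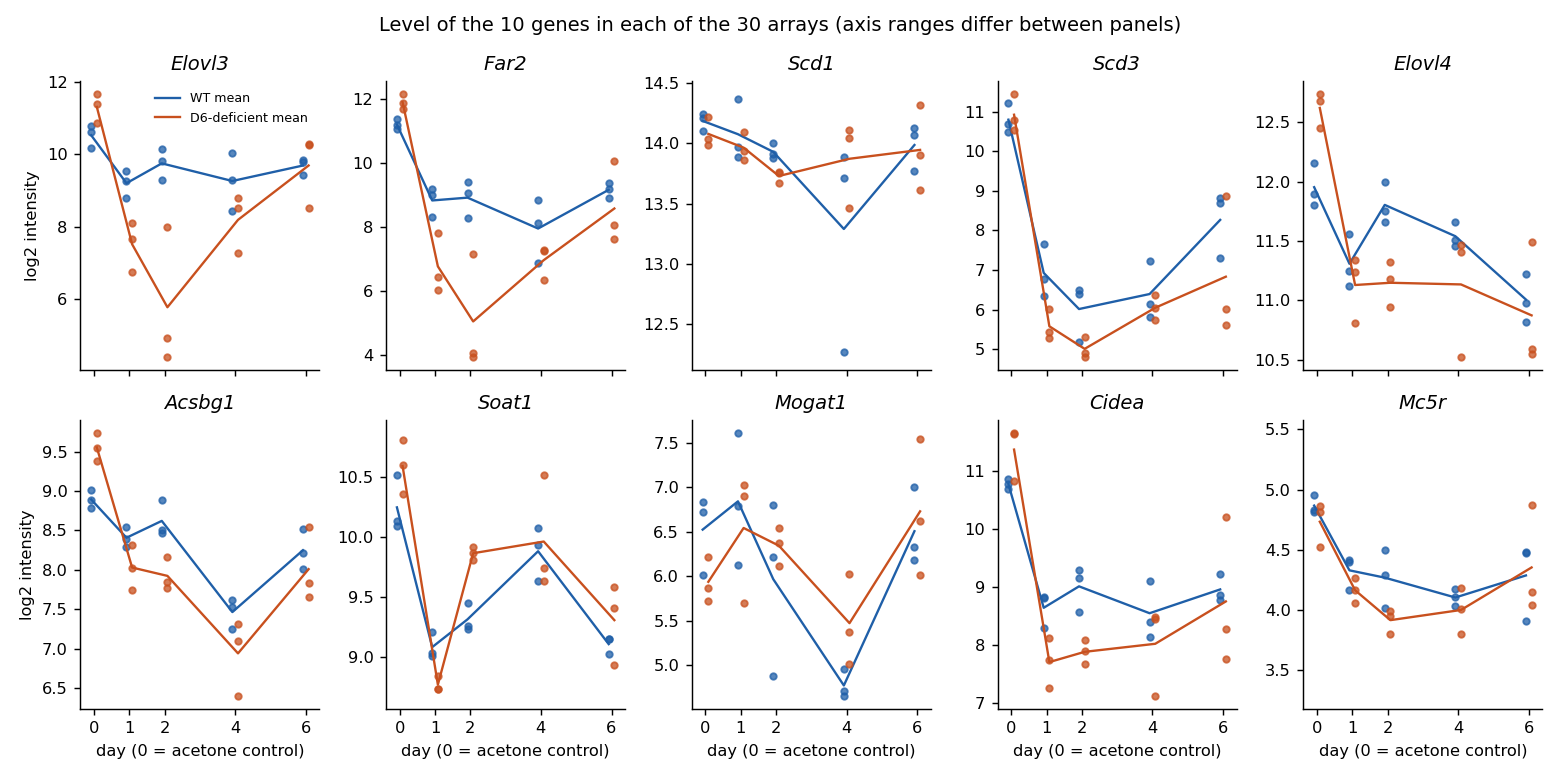
Log2 intensity (vertical axis) of the quoted probe set of each of the 10 genes against the day after TPA (horizontal axis, day 0 being the acetone control). Each point is 1 array, WT in blue and D6-deficient in orange, and lines join the means of 3 arrays. Far2, Scd3 and Cidea fell in both genotypes, and on day 2 the D6-deficient arrays of Elovl3 and Far2 all lie below the WT arrays.

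Among the elongases, Elovl3 fell in D6-deficient mice, while in WT mice its decrease did not pass the test on any day. The 3 WT arrays of each day after TPA nevertheless all lay below the 3 WT controls. The WT difference was -1.33 on day 1 (limma adjusted p = 0.136) and -1.27 on day 4 (adjusted p = 0.119). limma uses 1 spread per probe set for all 10 groups. For Elovl3 the SD was 1.95 in D6-deficient mice on day 2, but 0.31 in WT controls and 0.38 in WT mice on day 1. The WT tests of Elovl3 therefore rest in part on the spread of other groups. In WT controls Elovl3 (1420722_at) stood at 10.79, 10.19 and 10.61, and in D6-deficient controls at 11.67, 10.88 and 11.40. On day 2 the 3 WT arrays were at 10.15, 9.30 and 9.81 and the 3 D6-deficient arrays at 7.99, 4.39 and 4.90. All D6-deficient values on day 2 were lower than all WT values, and replicates 2 and 3 lay far below replicate 1. The change from day 0 to day 2 was -5.56 in D6-deficient mice (SE 0.64, 47.1-fold, limma adjusted p = 3.06e-07) and -0.78 in WT mice (SE 0.64, adjusted p = 0.401). Elovl3 was already lower on day 1 in D6-deficient mice, with a mean of 7.51 (SD 0.69, n = 3) against 9.20 (SD 0.38) in WT mice, and it had regained 9.69 by day 6, the same mean as in WT mice. Against its own control this day 6 value did not pass the test (-1.63, adjusted p = 0.0533). Over the 10 groups the mean of Elovl3 was highest in D6-deficient controls (11.32) and lowest in D6-deficient mice on day 2 (5.76), and the 4 WT groups after TPA, from 9.20 to 9.75, did not differ beyond their spread.

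Elovl4, which makes the ultra-long chains of epidermal ceramides as well as sebaceous ones, changed less. Its arrays read 12.16, 11.90 and 11.80 in WT controls and 12.00, 11.66 and 11.76 in WT mice on day 2. The D6-deficient arrays fell from 12.68, 12.45 and 12.74 to 11.32, 10.94 and 11.18. These D6-deficient values do not overlap with their controls, whereas the WT values do. Elovl4 (1451308_at) fell on all 4 days in D6-deficient mice, by between 1.47 and 1.75 on the log2 scale. In WT mice it fell on day 6 (-0.95, adjusted p = 0.00407) and on day 1 (-0.65, adjusted p = 0.0398, up to 0.154 when 1 of 4 arrays was left out) but did not pass on day 2 or day 4. The other probe set of Elovl4 (1424306_at) gave the same pattern except on day 4, when it fell in WT mice as well (-0.86, adjusted p = 0.0023).

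The desaturases parted from each other. Scd3 was the member with the largest decrease in WT mice on all 4 days, while the quoted probe set of Scd1 passed in 1 comparison with day 0. Scd3 (1450956_at) stood at 10.69, 11.23 and 10.49 in WT controls and at 10.55, 11.45 and 10.78 in D6-deficient controls. On day 2 it was at 6.39, 5.17 and 6.48 in WT mice and at 5.30, 4.91 and 4.81 in D6-deficient mice. Every array after TPA, on every day and in both genotypes, lay below every control array. The decrease on day 2 was 27.6-fold in WT mice (log2 difference -4.79, SE 0.58, adjusted p = 1.93e-06) and 60.5-fold in D6-deficient mice (-5.92, SE 0.58, adjusted p = 3.8e-08). The changes of the genotypes did not differ on the test (difference -1.13, 95% interval -2.84 to 0.57, adjusted p = 0.554). On day 2 the second probe set (1423366_at) had means of 4.91 in WT and 4.19 in D6-deficient mice. These values lie near the bottom of the array's range, so a difference between the genotypes may be understated.

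By day 6 Scd3 had risen again in WT mice, to 8.69, 7.29 and 8.81, which is 3.67-fold above day 4 (adjusted p = 0.0221). This increase lost its adjusted p under 0.05 when any of 4 of the 6 arrays concerned was left out, the highest adjusted p being 0.114. In D6-deficient mice on day 6 Scd3 stood at 5.61, 6.01 and 8.88, so that 1 mouse had the WT level and the others were near the level of day 4 (mean 6.05). The other probe set of Scd3 followed the quoted one over the 30 arrays (r = 0.98). Scd1 (1415964_at) ran from 13.46 to 14.37 on 29 of the 30 arrays, the exception being replicate 3 of WT mice on day 4 at 12.27. These values are near the highest of all arrays (14.98), where a probe set may respond less to a change. Its only change from day 0 to pass was that of WT mice on day 4 (-0.90, adjusted p = 0.00851), and without that array the adjusted p was 0.116. The other probe set of Scd1 (1415965_at), which ran from 9.19 to 12.49, did not pass in any comparison with day 0, its largest difference being that of the same group (-1.15, adjusted p = 0.0633).

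Far2, the enzyme of fatty alcohol synthesis, fell in both genotypes on all days and reached its lowest level in D6-deficient mice on day 2. Far2 (1455889_at) was at 11.36, 11.17 and 11.06 in WT controls and at 12.14, 11.67 and 11.88 in D6-deficient controls. On day 2 the WT arrays were at 9.40, 8.27 and 9.06 and the D6-deficient arrays at 7.14, 4.06 and 3.95. As for Elovl3, replicate 1 was the highest of the D6-deficient arrays on day 2 and still lower than every WT array. The decrease by day 2 was 4.86-fold in WT mice (-2.28, SE 0.66, adjusted p = 0.0121) and 115-fold in D6-deficient mice (-6.85, SE 0.66, adjusted p = 2.7e-08). Without replicate 2 of day 2 the WT decrease had an adjusted p of 0.0653, and that of day 1 reached 0.0524 without replicate 3 of day 1. The lowest Far2 values lie close to 3.73, the lowest mean of any probe set kept for testing, and no detection calls came with the values, so a fold change that ends there may understate the decrease. In WT mice the lowest mean of Far2 came on day 4 (7.95, SD 0.99), and on day 6 the means were 9.16 in WT and 8.58 in D6-deficient mice, still lower than in the controls in both (adjusted p = 0.0281 and 0.000506). The WT decrease on day 6 lost its adjusted p under 0.05 without any of 5 of its 6 arrays (at most 0.104). The second probe set (1435621_at) correlated with the first over the 30 arrays (r = 0.97) and was also called lower on each day in each genotype.

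RefSeq promoter windows were at hand for Far2, Scd3, Acsbg1, Elovl4, Soat1 and Mogat1, 6 of the 10 genes, and are shown for the genes with the deepest decreases, Far2 and Scd3, and for Acsbg1, whose window holds 2 matches. Each runs 5′ to 3′ on the gene's strand from 250 bases before the start of transcription to 50 after it, in build GRCm38.p6, at chr6:148047166-148047465 (plus strand) for Far2, chr19:44203038-44203337 (plus strand) for Scd3 and chr9:54661836-54662135 (minus strand) for Acsbg1. Capitals mark the bases that match, on either strand, any of the motifs named after the sequences.
Far2: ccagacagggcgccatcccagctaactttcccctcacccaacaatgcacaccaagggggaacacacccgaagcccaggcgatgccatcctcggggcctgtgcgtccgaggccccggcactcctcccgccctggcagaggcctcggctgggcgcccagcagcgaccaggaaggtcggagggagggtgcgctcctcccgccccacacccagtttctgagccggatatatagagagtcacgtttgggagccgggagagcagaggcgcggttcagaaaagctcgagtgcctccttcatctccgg
Scd3: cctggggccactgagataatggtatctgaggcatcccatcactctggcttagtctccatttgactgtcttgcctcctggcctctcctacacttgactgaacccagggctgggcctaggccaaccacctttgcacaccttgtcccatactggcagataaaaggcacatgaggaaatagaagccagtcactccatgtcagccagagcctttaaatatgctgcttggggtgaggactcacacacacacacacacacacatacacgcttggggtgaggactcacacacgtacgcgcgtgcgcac
Acsbg1: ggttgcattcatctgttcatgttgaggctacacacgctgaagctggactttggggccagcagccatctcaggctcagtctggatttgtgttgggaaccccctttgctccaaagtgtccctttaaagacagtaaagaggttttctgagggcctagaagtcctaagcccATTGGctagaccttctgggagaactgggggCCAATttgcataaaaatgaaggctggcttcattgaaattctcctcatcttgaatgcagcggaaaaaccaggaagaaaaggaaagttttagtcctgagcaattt
The windows of Far2 and Scd3 hold none of the motifs searched, and that of Acsbg1 holds CCAAT at 2 places, 1 on each strand. The AP-1 site, which is also known as the TPA response element, was searched as TGANTCA. It is in 0 of the 6 windows and in 7.81% of all 32851 windows of this length in the table. The nuclear receptor half-site AGGTCA is in 0 of the 6 and in 16.3% of all. The sterol response element, searched as TCACNCCAC, is in 0 of the 6 and in 1.24% of all. The box CCAAT is in 4 of the 6 windows (Acsbg1, Elovl4, Soat1 and Mogat1) and in 37.4% of all. The E-box CACGTG is in the window of Elovl4 and in 7.15% of all, while the box TATAAA is in 0 of the 6 and in 13.6% of all. A match describes letters and is no evidence of binding, and a missing match says only that these letters are not in the window.

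Acsbg1 fell less than Far2, with its lowest level on day 4 in both genotypes. On that day Acsbg1 (1422428_at) was at 7.62, 7.53 and 7.25 in WT mice and at 6.41, 7.10 and 7.32 in D6-deficient mice, from 8.78, 8.89 and 9.01 and from 9.54, 9.38 and 9.73 in the controls. All of these arrays lay below those of their controls, but the genotypes overlapped on day 4. The decrease by day 4 was 2.69-fold in WT mice (adjusted p = 1.31e-05) and 6.11-fold in D6-deficient mice (adjusted p = 1.44e-09). Acsbg1 rose from day 4 to day 6 in both, by 0.78 in WT mice (adjusted p = 0.0103, and over 0.05 without replicate 3 of day 4 or of day 6) and by 1.07 in D6-deficient mice (adjusted p = 0.000517). Both day 6 levels were still lower than the controls (adjusted p = 0.0346 and 1.18e-05), the WT one only narrowly: leaving out any of 5 of the 6 arrays put its adjusted p over 0.05, at most at 0.17.

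**Figure D2:**
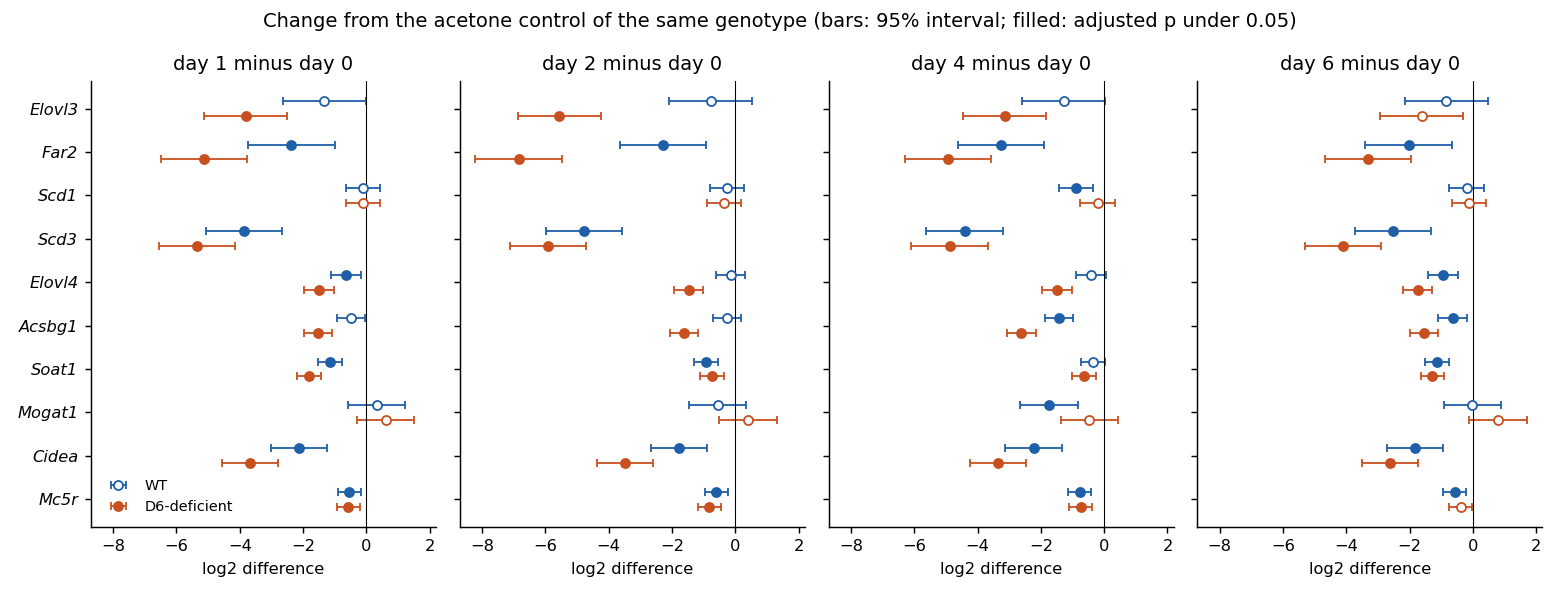
Log2 difference from the acetone control of the same genotype (horizontal axis) for each gene (vertical axis) on each day, WT in blue and D6-deficient in orange. Bars are 95% intervals of limma's fit, which uses 1 spread per probe set for all groups. They are not adjusted for the number of tests, and filled points have an adjusted p under 0.05. Scd3, Far2, Cidea and Elovl3 lie left of 0 in both genotypes on all days, and Elovl3 is filled only in D6-deficient mice on days 1, 2 and 4.

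The esterifying enzymes had time courses of their own. Soat1 (1417695_a_at) was lowest on day 1, at 9.21, 9.01 and 9.03 in WT mice and 8.74, 8.73 and 8.84 in D6-deficient mice, from 10.51, 10.13 and 10.09 and from 10.81, 10.36 and 10.60 in the controls. All treated arrays of that day lay below the controls, and all D6-deficient arrays below the WT arrays, although this genotype difference did not pass the test (-0.31, adjusted p = 0.681). Its means were 9.31 on day 2 and 9.88 on day 4 in WT mice and 9.86 and 9.96 in D6-deficient mice, a course whose steps were not tested. On day 6 it was lower in both, by 0.77 (adjusted p = 0.0031) and 0.65 (adjusted p = 0.00785) compared with day 4. The D6-deficient decrease from day 4 to day 6 lost its adjusted p under 0.05 without replicate 1 of day 4 or replicate 2 of day 6 (highest adjusted p 0.0937).

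The 4 probe sets of Soat1 did not behave alike. The dimmest, 1448068_at, stayed between 4.69 and 5.45 on all arrays after TPA, with means on day 4 of 5.23 in WT and 5.06 in D6-deficient mice. It was the only member probe set that passed between the genotypes on day 0, at 5.95, 5.96 and 5.64 in WT controls and 6.65, 6.41 and 6.79 in D6-deficient controls (0.77 higher, adjusted p = 0.00787). The other 3 correlated with each other at 0.89 or more over the 30 arrays and with the dimmest at 0.77 to 0.86.

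Mogat1 stood apart from the rest. Its only change from the controls to pass was on day 4 in WT mice, when the arrays read 4.96, 4.71 and 4.66 against 6.83, 6.02 and 6.72 in the controls (-1.75, SE 0.44, adjusted p = 0.00269). By day 6 it was back at 7.01, 6.33 and 6.18, a 3.32-fold increase over day 4 (adjusted p = 0.00559). D6-deficient mice had their lowest mean on day 4 as well (5.47, SD 0.51, against 5.94 in the controls), which did not pass (adjusted p = 0.425), but the increase from there to day 6 did (1.25, adjusted p = 0.0318). That increase lost its adjusted p under 0.05 when any of 4 of the 6 arrays was left out.

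Cidea, of the lipid droplet surface, fell in both genotypes on every day, without overlap with the controls. It stood at 10.79, 10.69 and 10.86 in WT controls and at 8.81, 8.83 and 8.29 on day 1. The D6-deficient arrays fell from 11.64, 10.83 and 11.66 to 7.25, 7.74 and 8.11. The decrease was steady in WT mice, from 3.4-fold on day 2 to 4.7-fold on day 4. In D6-deficient mice it went from 12.7-fold on day 1 to 6.16-fold on day 6, and every one of these 8 decreases passed (largest adjusted p 0.00364). Mc5r (1460723_at) was dim on all arrays, between 3.80 and 4.96, and its decreases were small, from 0.38 to 0.82 on the log2 scale. They passed on all days in WT mice and on days 1, 2 and 4 in D6-deficient mice. Those of WT mice on days 1, 2 and 6, and that of D6-deficient mice on day 1, lost their adjusted p under 0.05 when 1 of 1 to 3 arrays was left out (at most 0.13), and near the bottom of the array's range a small difference can stand for a larger one.

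The direct comparison of the genotypes showed differences on day 2 and few elsewhere. On day 2 Elovl3 was 15.9-fold lower in D6-deficient than in WT skin (-3.99, SE 0.64, 95% interval -5.30 to -2.68, limma adjusted p = 0.000301). Far2 was 14.6-fold lower (-3.86, SE 0.66, 95% interval -5.22 to -2.50, adjusted p = 0.000619) and its second probe set 5.08-fold lower (adjusted p = 0.0112). These 3 of 17 probe sets were called, where 0.161% of all tested probe sets were called lower. Elovl4 by its second probe set also passed (-0.77, adjusted p = 0.0345), so that 4 of 17 passed against 1.99% of all. The quoted probe set of Elovl4 (-0.66, adjusted p = 0.113), Acsbg1 (-0.70, adjusted p = 0.0703) and Cidea (-1.13, adjusted p = 0.16) did not. Soat1 was higher in D6-deficient than in WT mice on day 2, without overlap, at 0.55 (adjusted p = 0.0948).

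The day 2 differences of Elovl3 and of the quoted probe set of Far2 kept their call without any single array, whereas the second probe set of Far2 lost it without any of 4 of the 6 arrays, which left 2 called. The unpaired test named in the methods, run on the same arrays and values, called 3 of the 17 probe sets on day 2 before and 0 after Benjamini-Hochberg adjustment. The share of all probe sets that this test called was not counted, so these counts cannot be set against it. Leaving out each of the 6 arrays in turn gave -5.11 to -3.31 for Elovl3 (highest adjusted p 0.00478) and -4.91 to -3.31 for Far2 (highest adjusted p 0.00886). The smallest of them came without replicate 2 or 3 of the D6-deficient mice, the largest without replicate 1. Within the brighter arrays Elovl3 had a mean of 4.90 in D6-deficient mice (1 array) and 9.55 in WT mice (2 arrays), and within the dimmer arrays 6.19 (2 arrays) and 10.15 (1 array). For Far2 the same means were 3.95 and 8.67, and 5.60 and 9.40.

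On day 2, 10 of the 17 probe sets were lower in all 3 D6-deficient arrays than in all 3 WT arrays and 3 were higher, against 11.9% and 10.4% of all probe sets. In the controls 7 were higher and 1 was lower in this sense, where 10.8% of all probe sets were higher and 10.8% lower. Elovl3, Far2, Acsbg1 and Elovl4 were among the 7, with differences of 0.79, 0.70, 0.66 and 0.67 for the quoted probe sets (adjusted p = 0.632, 0.695, 0.129 and 0.143). None was called on day 0 (0.122% of all probe sets were, in either direction), 1 passed, the dimmest of Soat1 (0.713% of all rose), and 6 had an unadjusted p under 0.05 (14.3% of all). On day 1 no member was called between the genotypes (0.0139% of all), 6 had an unadjusted p under 0.05 (8.01% of all), and 8 were lower in D6-deficient mice without overlap (6.89% of all). Among these 8, Far2 (-2.06, adjusted p = 0.377) and Elovl3 (-1.69, adjusted p = 0.503) had the largest differences. On days 4 and 6 no member was called either (0.0777% and 0.0167% of all), with 2 of 17 at an unadjusted p under 0.05 on each day, near the 10.1% and 8.37% of all probe sets. On day 6 all 17 overlapped between the genotypes, where 3.59% of all probe sets were higher and 5.65% lower without overlap. The means of Elovl3 on day 6 differed by 0.00 (95% interval -1.31 to 1.31).

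**Figure D3:**
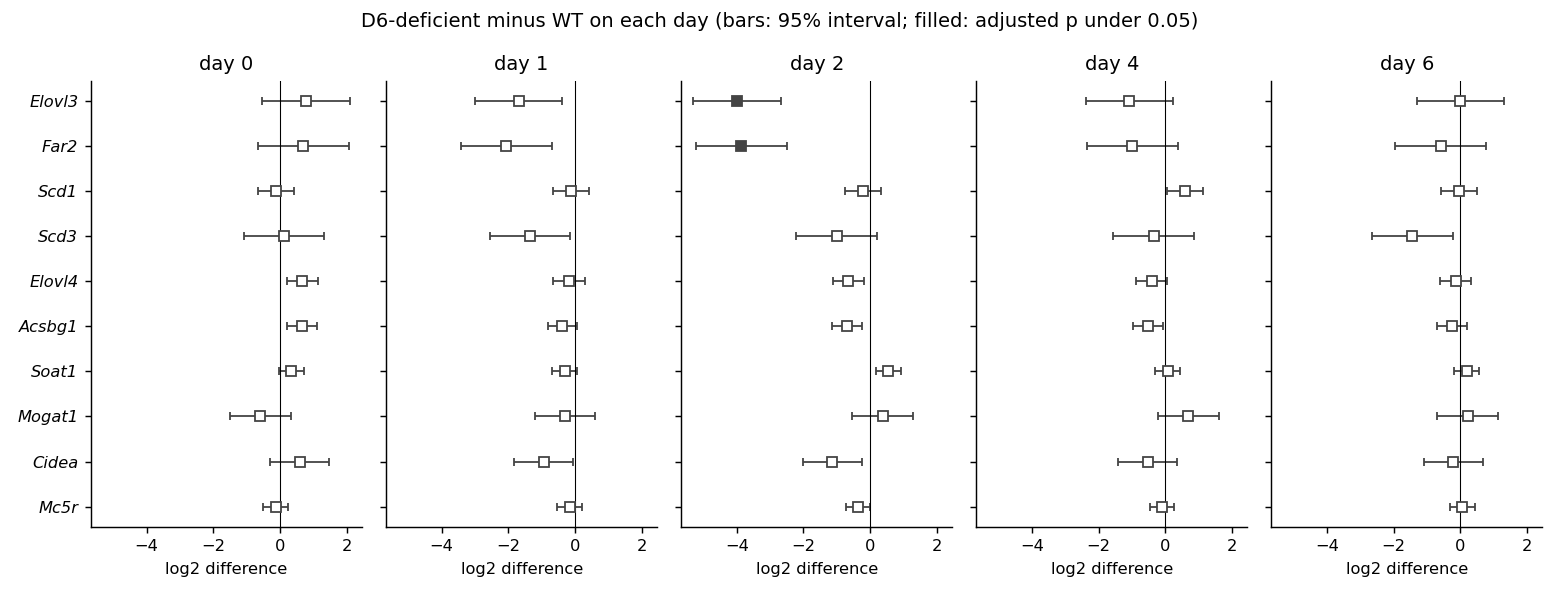
D6-deficient minus WT log2 difference (horizontal axis) for each gene (vertical axis) on each of the 5 days. Bars are 95% intervals, not adjusted for the number of tests, and filled squares have an adjusted p under 0.05. The only filled squares are those of Elovl3 and Far2 on day 2.

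To take the controls into account, the change from day 0 was also set against the change in WT mice. By day 2 the change of Elovl3 was more negative in D6-deficient mice by 4.78 (log2 difference of changes -4.78, SE 0.90, adjusted p = 0.00203), and that of Far2 was too (-4.57, SE 0.93, adjusted p = 0.00383). Acsbg1 and Elovl4 passed as well, at -1.36 (adjusted p = 0.0083) and -1.32 (adjusted p = 0.014). For these genes a part of the difference lies on day 0 and a part on day 2: for Acsbg1, 0.66 higher before and 0.70 lower after TPA. In all 7 of 17 probe sets passed, each with the larger decrease in D6-deficient mice, where 2.62% of all tested probe sets did, and 3 were called, where 0.555% were. Cidea (-1.73, adjusted p = 0.105) did not pass. For day 1 no member passed (11 had an unadjusted p under 0.05, against 9.7% of all probe sets, and all 11 with the larger decrease in D6-deficient mice), for day 4 only the dimmest probe set of Soat1 did (-0.93, adjusted p = 0.0346, 0.416% of all passing this way, and 7 with an unadjusted p under 0.05, 6 lower and 1 higher, against 11% of all), and for day 6 none did (4 with an unadjusted p under 0.05, against 8.01% of all). No member was called for day 1, day 4 or day 6, where 0.00278%, 0.153% and 0.00278% of all probe sets were.

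From day 4 to day 6, 2 of the 17 probe sets were called higher in WT mice, those of Scd3 and Mogat1 quoted above (0.933% of all). In D6-deficient mice 1 was, the second probe set of Far2 (1.88, adjusted p = 0.0106, 1.57% of all).

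In some groups 1 mouse was the highest or the lowest in most of the genes. In D6-deficient mice on day 2 the lowest values were spread over the 3 mice (3, 4 and 3 genes). Replicate 1 of that group was nonetheless the highest for 6 of 10 genes, and the SD of Elovl3 there was 1.95. In D6-deficient mice on day 6, replicate 3 was the highest array for 8 of 10 genes, with Far2 at 10.06 against 7.62 and 8.04 and Cidea at 10.21 against 7.76 and 8.28. On day 1 replicate 3 of the D6-deficient mice was highest for 9 of 10. Replicate 1 of the D6-deficient mice on day 4 was lowest for 7, replicate 3 of the WT mice on day 4 for 7 and replicate 2 of the WT mice on day 2 for 8. The mean of the 10 genes, each centred on its own mean over all arrays, was -0.58, -0.30 and 0.75 in the D6-deficient mice on day 6, a spread (SD 0.70) larger than in any other group.

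Over the 30 arrays, which share the time course and the genotypes, Far2, Cidea and Scd3 followed the mean of the other 9 genes most closely (r = 0.95, 0.95 and 0.90), then Elovl3 (0.80), Acsbg1 (0.77), Elovl4 (0.73) and Mc5r (0.72). Scd1 (0.47), Soat1 (0.40) and Mogat1 (0.14) followed it least. Among all other tested probe sets that carry a symbol, those most like the mean of the 10 were Fa2h (r = 0.99), Pnpla5 (0.97), Acoxl (0.97), Panx3 (0.96), Elovl6 (0.96), Sec14l4 (0.96), Cyp1a1 (0.95), Ldhb (0.95 on each of 2 probe sets) and Cisd1 (0.95), by Pearson's correlation over 30 arrays. The genes were centred but not scaled in this mean. Far2 and Scd3, whose group means span 6.85 and 5.92, therefore weigh more in it than Scd1 (0.90). Fa2h, which hydroxylates fatty acids, went from a mean of 11.86 in WT controls to 9.30 on day 2 and from 12.70 to 6.88 in D6-deficient mice. Elovl6 extends palmitate to stearate and Pnpla5 is a lipase, whereas Panx3 is a channel protein.

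Other enzymes of sebaceous lipid synthesis were counted as a list of 24 genes, of which 21 were on the array by symbol. On day 2, 9 of the 21 fell and 2 rose in WT mice, and the same numbers in D6-deficient mice, with 2 called lower in each genotype and none called higher. On day 1, 8 fell and 2 rose in WT mice and 6 fell and 3 rose in D6-deficient mice, on day 4 it was 11 and 2 against 8 and 4, and on day 6 it was 6 and 1 against 7 and 3. Of all tested probe sets, 12.7%, 15%, 21.8% and 11.9% fell in WT mice on the 4 days. In D6-deficient mice 18.1%, 20.6%, 22.4% and 15.7% did. On day 2, 0.699% and 1.57% of all were called lower. The shares that rose are not given here. The 2 called on day 2 were Elovl6 (-1.75 in WT and -4.38 in D6-deficient mice) and Elovl5, an elongase of polyunsaturated fatty acids (-1.64 and -2.25). Elovl6 was also the 1 gene of this list called between the genotypes on day 2 (-2.03, adjusted p = 3.4e-05), and its changes differed between them (-2.63, adjusted p = 0.000201). Those that rose on day 2 were Elovl1 and Elovl7 in WT mice (0.72 and 1.57) and Fads2 and Soat2 in D6-deficient mice (0.75 and 0.77). Soat2, the other enzyme that esterifies cholesterol, was called higher on day 4 in both genotypes (2.72 and 2.90). Fatty acid synthase (Fasn) and acetyl-CoA carboxylase (Acaca), which make the palmitate that the members work on, were already lower in D6-deficient controls, each by 1.74 (adjusted p = 0.0239 and 0.005).

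Of the 8 markers and regulators of sebocytes and the sebaceous duct, 5 fell in D6-deficient mice on day 2 and none rose, whereas 4 fell and 1 rose in WT mice. Lrig1, a marker of the stem cells above the gland, fell in both (-1.40 and -0.78), as did Plin2 of the lipid droplet coat (-0.56 and -0.60). Krt79, a keratin of the sebaceous duct, fell in D6-deficient mice alone (-2.43, adjusted p = 5.71e-05) and was lower there than in WT mice on day 2 (-2.30, adjusted p = 0.00107), and its changes differed between the genotypes (-2.85, adjusted p = 0.00402). Prdm1 rose in WT mice (1.46, adjusted p = 1.67e-06), again with a difference between the changes (-1.41, adjusted p = 0.0012). Pparg, the nuclear receptor that drives sebocyte differentiation, did not pass on day 2 in either genotype, and fell only in WT mice on day 4 (-0.66, adjusted p = 0.0418). Over all days, 2, 4, 4 and 2 of the 8 fell in WT mice and 4, 5, 5 and 4 in D6-deficient mice. The shares of all tested probe sets that fell are those given for the lipid enzymes.

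Some members are also expressed in fat, and other cell types changed on the same days. The levels of 8 adipocyte genes, added on the linear scale and returned to log2, ran from 16.08 to 16.25 in WT controls and from 15.68 to 16.05 on day 2, and in D6-deficient mice from 15.91 to 16.05 and from 15.80 to 15.81. None of the 8 was called on day 2, although 1 fell in WT and 3 in D6-deficient mice and 1 was lower in D6-deficient than in WT mice. Of all tested probe sets, 15% and 20.6% fell on that day, and 1.99% were lower in D6-deficient than in WT mice. On day 4 in WT mice, when Mogat1 and Scd1 were low, 5 of 8 fell and 1 was called (summed level 15.36 to 15.65). Of all tested probe sets, 21.8% fell in that comparison and 1.48% were called lower. The brown adipocyte gene Ucp1 stayed between 3.20 and 4.52 on all arrays, near the lowest values of the platform, and of the tested genes Dio2 and Prdm16 at most 1 fell in any comparison with day 0. The mean of the 10 members on day 2 ran from -0.32 to 0.24 in WT and from -1.35 to -0.66 in D6-deficient mice.

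Genes of the hair shaft and inner root sheath divided the days sharply. All 7 were called higher on day 1 and on day 6 in both genotypes, with median log2 differences of 4.89 and 5.92 in WT and of 6.21 and 6.57 in D6-deficient mice. On day 2 none passed in either genotype (medians 0.03 and -0.25), and on day 4 only 1 did, in D6-deficient mice. Their summed level was 7.58 to 7.79 in WT and 7.72 to 7.81 in D6-deficient mice on day 2. None of the 7 passed between the genotypes on that day or on any other. The members' decreases were seen on days 1 and 6, with these hair genes higher. The decreases were also seen on days 2 and 4, when at most 1 of the 7 hair genes passed. Whether the hair genes and the members' decreases are related was not tested. The epidermal list changed on day 4, when 3 of 5 genes were called lower in each genotype (medians -2.36 and -4.38). Of all tested probe sets, 1.48% in WT and 2.04% in D6-deficient mice were called lower on that day. On day 2 none of the 5 fell, while 3 rose in WT and 2 in D6-deficient mice, and in the controls 2 of 5 were higher in D6-deficient mice. Genes listed for neutrophils and macrophages changed on day 2 as well. Of the neutrophil genes 1 was already called higher in D6-deficient than in WT controls. Of 4 neutrophil genes on the array 2 rose and 1 fell in WT mice and 3 rose in D6-deficient mice, and Ngp, of neutrophil granules, was higher in D6-deficient than in WT mice (4.82, adjusted p = 0.000485). Of 4 macrophage genes 1 rose in WT and 2 in D6-deficient mice, with Cd68 higher in D6-deficient mice (0.82, adjusted p = 0.0173). All 3 genes of proliferating cells rose in WT mice (2 called, median 1.67) and 2 of 3 in D6-deficient mice, and none differed between the genotypes. All 3 skeletal muscle genes fell in both genotypes on day 2 and none differed between them. Of all tested probe sets, 15% fell in WT and 20.6% in D6-deficient mice on that day. The share of all probe sets that rose is not given here, so counts of genes that rose cannot be set against it. The part that these cell types play in the members' values was not tested.

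**Figure D4:**
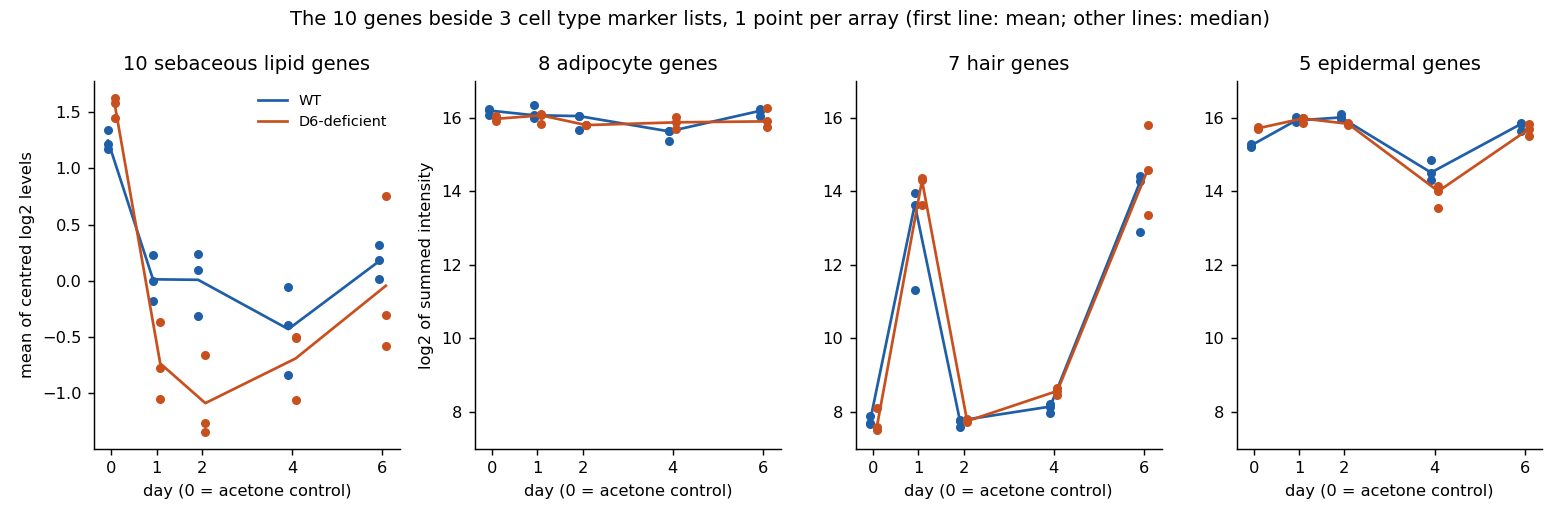
Left, the mean of the 10 genes after centring each on its mean over all arrays (log2 units). The other panels show the log2 of the summed intensity of 8 adipocyte, 7 hair and 5 epidermal genes, against the day (day 0 being the acetone control), with 1 point per array, WT in blue and D6-deficient in orange, and lines through the means (left) or medians. The mean of the 10 genes is lower on all days after TPA, adipocyte genes stay between 15.36 and 16.35, and hair genes are high on days 1 and 6 only.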

How the data were processed

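Total RNA of back skin was hybridised to 30 arrays, 3 mice for each of 10 groups of genotype and day, and groups were taken from the sample labels. The authors normalized the arrays with RMA and deposited linear intensities; the methods also name a base-line transformation to the controls, which these values do not show. Their log2 was used here. After leaving out 64 control probe sets and the 20% with the lowest mean, 36029 of 45037 were tested with limma 3.58.1 in R 4.3.3 (lmFit and eBayes, 1 mean per group, 20 residual degrees of freedom), which replaces the unpaired t-test of the methods. The test was checked on simulated data. The number of arrays limits the precision: with 3 mice per group the smallest p of an exact permutation test is 0.1. The 10 genes, the gene lists and the rule (all members, up to 4 genes a list with the largest change, the 10 most similar probe sets) were chosen with earlier results of these data known. Genes of a list named beyond the rule, such as Elovl1 and Pparg, were chosen after their values were seen. The values of 1 gene of the sebocyte list are not reported here. Promoter windows are those of RefSeq on GRCm38.p6; a genome build for the array is not given in the sources used here. Figures were drawn with Python 3.11.15 and matplotlib 3.10.9.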

Additional observations from a re-analysis of the deposited data

Results flagged for a closer look

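The change from day 0 differed between D6-deficient and WT mice for 8 values of the members, tested as the difference of the changes with limma (adjusted p in parentheses). On day 2 it was -4.78 for Elovl3 (0.00203), -4.57 and -3.33 for the 2 probe sets of Far2 (0.00383 and 0.0104), -1.36 for Acsbg1 (0.0083), -1.32 and -1.28 for the 2 probe sets of Elovl4 (0.014 and 0.011) and -0.70 for the dimmest probe set of Soat1 (0.0473). On day 4 it was -0.93 for the same probe set of Soat1 (0.0346). Each is a log2 difference and each is negative because the decrease was larger in D6-deficient mice. The 3 brighter probe sets of Soat1 gave 0.21, 0.09 and -0.14 on day 2, none of which passed.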

How the results depend on the processing

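None of the 68 quoted member differences with an adjusted p under 0.05 changed direction in 1037 refits, and 80 of these refits put the p over the threshold, 39 of them by leaving out 1 array and 29 by the methods' t-test after Benjamini-Hochberg adjustment. Another 122 quoted differences did not pass. Among their refits 64 passed in the same direction, in a count that takes in the t-test without adjustment. Leaving out no or 40% of low probe sets, centring each array on its median, an intensity trend with a robust prior, and the replicate block moved no count of called member probe sets by over 1.5 times in any of 19 comparisons. With 40% left out only 61 of the 68 differences were tested, because Mc5r fell under that filter, so its decreases were not checked in this way. The labels do not say what arrays of the same replicate number share, although their array numbers run in an unbroken series over both genotypes and all days. Of the 30 arrays, 12 correlated best with their own replicate number. With the replicate block, 3 member probe sets were called between the genotypes on day 2, 3 for the difference of changes, 5 in WT and 8 in D6-deficient mice on day 2 against day 0, and it changed no other call of a member.

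With no fold threshold, the called probe sets became 12, 10, 11 and 13 of 17 in WT mice on days 1, 2, 4 and 6. In D6-deficient mice they became 14 on day 2 and on day 4. From day 4 to day 6 they became 7 in WT mice (4 higher and 3 lower) and 6 in D6-deficient mice (3 higher and 3 lower). Between the genotypes on day 0 the count became 1. For the difference of changes by day 2 and day 4 it became 7 and 1. At 2-fold, the difference of changes by day 2 gave 6 and D6-deficient day 6 against day 4 gave 3. The methods' t-test unadjusted gave 3 between the genotypes on day 1, 4 and 2 for the difference of changes by day 1 and day 4, and 0 for D6-deficient day 6 against day 4. After adjustment it gave 0 between the genotypes on day 2, 1 for the difference of changes by day 2, 0 in WT and 1 in D6-deficient mice on day 6, and 0 for day 6 against day 4 in either. For the t-test the share of all probe sets called was not counted. The D6-deficient count of day 6 against day 4 became 4 with the hybridization set as a covariate and 0 with the arrays of that comparison only. The cause of these shifts was not tested.

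Leaving out 1 array gave 3 to 5 in WT mice on day 2 (3 without replicate 2 of day 2) and 3 to 5 on day 6 (3 without replicate 2 of day 6), 0 to 4 for WT day 6 against day 4, 0 to 3 for D6-deficient day 6 against day 4, and 0 to 2 between the genotypes on day 6 (2 without replicate 3 of the D6-deficient mice). In the other comparisons the count stayed within 1.5 times.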
